A study of Mus musculus with 2 samples.

Results

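The junction genes of the intercalated disc were taken as 10 named genes: Gja1, Cdh2, Ctnna1, Ctnna3, Jup, Dsg2, Dsc2, Pkp2, Dsp and Tjp1. All transcript models that carried one of these names were collected, and their counts were added per gene. All 10 were among the 16269 reference genes with a count in at least 1 library. The samples are hearts of male B6CASTF1/J mice, F1 animals of a C57BL/6J by CAST/EiJ cross, at 14 days of age. No treatment or mutation is given, and the study holds 1 group of 2 long-read RNA libraries, replicate 1 and replicate 2, so each comparison sets these libraries against each other. Both libraries carry the same donor label, and their descriptions name the same cDNAs, while their tissue samples are numbered differently, so the spread between them may be partly technical. The labels speak of 3 males per tissue sample without saying that tissue was pooled.

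The intercalated disc is the end-to-end contact between heart muscle cells. Gap junction channels let current pass from cell to cell, adherens junctions tie the contractile actin filaments of neighbouring cells together, and desmosomes anchor the desmin intermediate filaments. In the mammalian heart the adherens and desmosomal proteins also meet in a mixed junction, the area composita, and inherited defects of desmosomal genes are known in arrhythmogenic cardiomyopathy.

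Each library held about the same number of counts on reference genes, 1059016 in replicate 1 and 1064679 in replicate 2, and levels are given as CPM, the count scaled to a library total of 1000000. A count is 1 long read assigned to a transcript model; 1 count was worth 0.944 CPM in replicate 1 and 0.939 CPM in replicate 2. Cardiomyocyte markers summed to 41071 CPM in replicate 1 and 41601 CPM in replicate 2 over 8 of 8 detected genes, so the heart label held. Single markers among them moved in the exact binomial test used for the junction genes. In it, 4 were higher in replicate 1 (Tnni3, Myl2, Tnnc1 and Pln) and 2 in replicate 2 (Myh6 and Actc1). The same test called 3.26% of all genes tested. Markers of other tissue parts differed between the libraries: the 4 atrial markers summed to 4867 CPM in replicate 1 and 1200 CPM in replicate 2, and the 4 thymus markers stood at 0 counts for replicate 1 and 67 for replicate 2. Red blood cell markers summed to 17251 CPM in replicate 1 and 12793 CPM in replicate 2, and the 4 adipocyte markers to 173 CPM in replicate 1 and 94.9 CPM in replicate 2. Of the adipocyte markers, Ucp1 and Cidea were higher in replicate 1 by the exact binomial test, while Adipoq and Cfd were not called. The 5 macrophage markers summed to 279 CPM in replicate 1 and 390 CPM in replicate 2, of which Lyz2 alone passed the exact binomial test used for the junction genes. In tissue RNA, fewer cells of a type and less RNA per cell cannot be told apart.

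A few short stretches of reference sequence carry the isoform results. They were read from the GENCODE M21 transcripts (mm10, plus strand), 5′ to 3′. The first 3 come from the desmoplakin gene Dsp on chromosome 13, which makes a long form, I, and a short form, II. In the junction stretches the capitals mark the start of the last exon, exon 24, which both forms share. In the third the capitals mark the first bases that are present in form I only, just past the splice site that form II uses. In the stretch from Gja1 on chromosome 10 the capitals mark the start codon, to show how close it lies to the start of exon 2.
Dsp-201 junction: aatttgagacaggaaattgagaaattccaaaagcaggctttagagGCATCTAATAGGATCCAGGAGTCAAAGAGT
Dsp-202 junction: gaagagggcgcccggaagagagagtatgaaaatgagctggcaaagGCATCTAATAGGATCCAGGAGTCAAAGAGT
Dsp-201 across the form II donor: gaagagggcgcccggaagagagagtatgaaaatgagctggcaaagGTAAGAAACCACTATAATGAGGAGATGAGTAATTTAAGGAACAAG
Gja1-201 exon 2 start: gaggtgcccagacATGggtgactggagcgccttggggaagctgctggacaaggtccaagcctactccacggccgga
The form I junction joins chr13:38193611-38193655 to chr13:38194696-38194725, and the form II junction joins chr13:38191814-38191858 to the same exon. The stretch across the form II splice site is chr13:38191814-38191903, and the Gja1 stretch is chr10:56387534-56387609.

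Replicate 1 had 2113 counts on the 10 genes and replicate 2 had 2568, which was 0.200% of the reference counts in replicate 1 and 0.241% in replicate 2. Gja1 made up 39.6% of these in replicate 1 and 44.1% in replicate 2, and Ctnna1 29.8% in replicate 1 and 28.9% in replicate 2. The gap junction gene and 1 alpha-catenin gene thus held most of the reads, while the desmosomal cadherins, Ctnna3 and Tjp1 had few.

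**Figure D1:**
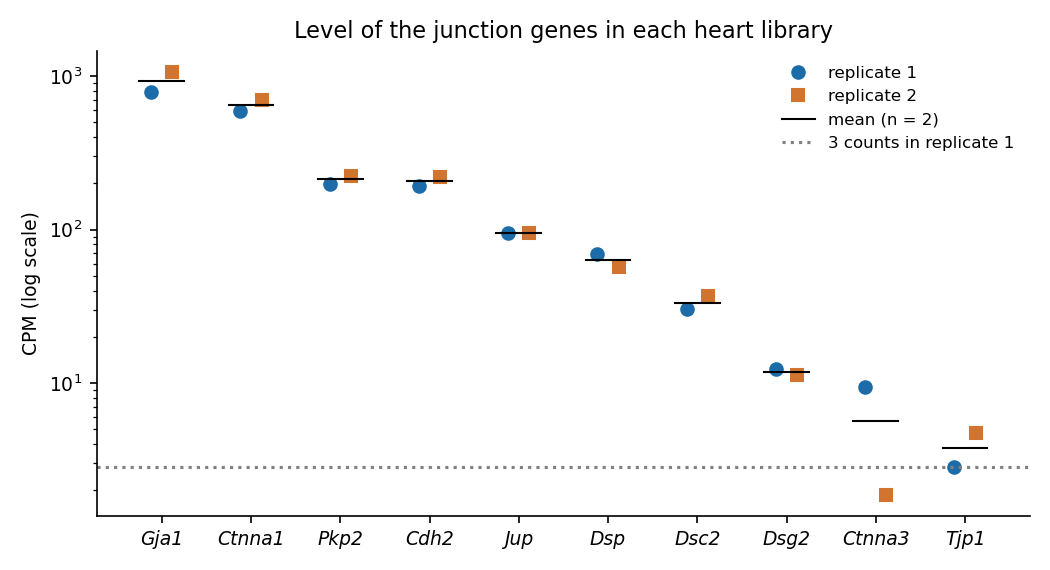
The level of each gene in CPM, on a log axis, in replicate 1 (circles) and replicate 2 (squares), with the mean of both as a bar and the level of 3 counts in replicate 1 as a dotted line. The genes run from Gja1 at 926.8 CPM to Tjp1 at 3.76 CPM, and the spread between libraries was widest, relative to the mean, for Ctnna3.

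Gja1 encodes connexin 43, the main gap junction protein of the ventricle. It lies on chr10:56377330-56402513, plus strand. Gja1 had 836 counts in replicate 1 and 1133 in replicate 2, which is 789.4 CPM in replicate 1 and 1064 CPM in replicate 2, a mean of 926.8 ± 194 CPM (SD, n = 2). It ranked 135 of the 16269 detected genes. The other connexins on a list of 13 connexins and pannexins lay far lower: the highest were Gjc1 (connexin 45) at 59.3 ± 1.11 CPM, Gja3 (connexin 46) at 58.4 ± 6.88 CPM and Gja4 (connexin 37) at 28.7 ± 6.10 CPM. Gja5 (connexin 40), known from atrial muscle and the conduction system, was at 16.0 ± 2.72 CPM. The list had 7 genes at 0 in both libraries, which allows up to 2.83 CPM in replicate 1 and 2.82 CPM in replicate 2 by a limit of 3 counts.

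The adherens junction holds a cadherin and its catenins. Cdh2 encodes N-cadherin, the classical cadherin of heart muscle (chr18:16588877-16809246, minus strand). Cdh2 had 205 counts in replicate 1 and 235 in replicate 2, a mean of 207 ± 19.2 CPM (SD, n = 2). Its libraries lay close together, and its level did not part from that of Pkp2, the next gene above it in the order.

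Ctnna1 encodes alpha-E-catenin, which couples cadherins to actin (chr18:35118859-35254779, plus strand). Ctnna1 had 629 counts in replicate 1 and 741 in replicate 2, a mean of 645 ± 72.2 CPM (SD, n = 2), and ranked 196. Ctnna3 encodes alpha-T-catenin, a form known from heart muscle that also binds plakophilin 2 (chr10:63430098-65003667, plus strand). Ctnna3 had 10 counts in replicate 1 and 2 in replicate 2, a mean of 5.66 ± 5.35 CPM (SD, n = 2), with replicate 2 under the limit of 3 counts. Of the alpha-catenin genes, Ctnna1 was therefore higher than Ctnna3 in both libraries by CPM. Divided by transcript length, the means were 173 CPM per kb for Ctnna1 and 1.54 CPM per kb for Ctnna3. The third alpha-catenin gene, Ctnna2, known from the nervous system, was at 0 in both libraries.

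Jup encodes plakoglobin, which sits in adherens junctions and in desmosomes (chr11:100368958-100397763, minus strand). Jup had 101 counts in replicate 1 and 101 in replicate 2, a mean of 95.1 ± 0.359 CPM (SD, n = 2). Its close relative Ctnnb1, beta-catenin, was at 86.2 ± 8.33 CPM. Of the 15 listed adherens junction genes outside the 10, 12 were detected, and the highest were Cdh13 (T-cadherin) at 262 ± 7.65 CPM, Nrap at 121 ± 18.9 CPM and Nectin2 at 96.6 ± 11.7 CPM.

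The desmosome joins a pair of cadherins, the armadillo proteins Pkp2 and Jup, and desmoplakin. Pkp2 encodes plakophilin 2, the heart's main plakophilin (chr16:16213318-16272712, plus strand). Pkp2 had 211 counts in replicate 1 and 239 in replicate 2, a mean of 212 ± 17.8 CPM (SD, n = 2). Dsp encodes desmoplakin, which links the desmosome to desmin (chr13:38151294-38198577, plus strand). Dsp had 73 counts in replicate 1 and 61 in replicate 2, a mean of 63.1 ± 8.23 CPM (SD, n = 2).

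The desmosomal cadherins were lower than both. Dsc2 encodes desmocollin 2 (chr18:20030633-20059554, minus strand) and had 32 counts in replicate 1 and 39 in replicate 2, a mean of 33.4 ± 4.54 CPM (SD, n = 2). Dsg2 encodes desmoglein 2 (chr18:20558074-20604521, plus strand) and had 13 counts in replicate 1 and 12 in replicate 2, a mean of 11.8 ± 0.710 CPM (SD, n = 2). The 2 cadherin ranges did not overlap, with Dsc2 2.84 times as high as Dsg2 by mean CPM. The cadherins known from stratified epithelia, Dsg1a, Dsg1b, Dsg3, Dsg4 and Dsc1, were at 0 in both libraries, as was Pkp3, and Dsc3 had 0 counts in replicate 1 and 1 in replicate 2. Epithelial markers were also low, at 15 counts in replicate 1 and 42 in replicate 2 over 6 genes, with Krt5 and Cdh1 at 0. Among the 13 other desmosome genes listed, Perp, a desmosome-associated membrane protein, was the highest at 402 ± 58.1 CPM, followed by Pkp4 at 36.2 ± 5.86 CPM and Tmem43 at 23.5 ± 0.0888 CPM.

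Tjp1 encodes ZO-1, the scaffold that binds the tail of connexin 43 (chr7:65296165-65527781, minus strand). Tjp1 had 3 counts in replicate 1 and 5 in replicate 2, a mean of 3.76 ± 1.32 CPM (SD, n = 2), the lowest of the 10. Both libraries lay close to the limit of 3 counts. Among the 11 listed tight junction genes, Cldn5, an endothelial claudin, was at 279 ± 8.27 CPM and Cxadr, the coxsackievirus and adenovirus receptor, at 25.9 ± 1.90 CPM.

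By CPM the order was Gja1, Ctnna1, Pkp2, Cdh2, Jup, Dsp, Dsc2, Dsg2, Ctnna3 and Tjp1. Neighbours in this order had library ranges that did not overlap, except Pkp2 with Cdh2 and Ctnna3 with Tjp1. With annotated transcripts alone the order changed in 2 places: Dsp, at 6.43 CPM, came after Dsc2, at 33.3 CPM, and Ctnna3, listed at 0, came after Tjp1, at 0.584 CPM. A long read is counted once whatever its length, so levels were not divided by length, and the order per kilobase is an alternative only. Divided by transcript length, 8 of the 10 genes kept their place, and Dsp and Dsc2 changed places at 6.58 CPM per kb for Dsp and 7.22 CPM per kb for Dsc2. At the top, Gja1 stood at 302 CPM per kb, Ctnna1 at 173 CPM per kb, Pkp2 at 72.6 CPM per kb and Cdh2 at 42.8 CPM per kb.

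Gja1 was the only one of the 9 members tested that was called as different between the libraries by the exact binomial test. Its CPM in replicate 1 was 0.742 times that in replicate 2 (95% exact interval 0.678 to 0.812, log2 ratio -0.43), with an adjusted p of 7.6e-09 in a two-sided exact conditional binomial test over 10162 genes. Over all genes tested, 331 (3.26%) were called at an adjusted p of 0.05, of which 163 (1.6%) were higher in replicate 2 and 168 (1.65%) higher in replicate 1. This test knows only counting error: with the spread that edgeR estimated across genes (a biological coefficient of variation of 0.124), 22 genes were called and Gja1 was not, at a log2 ratio of -0.35 and an adjusted p of 1 by edgeR's exact test. That spread came from the same 2 libraries taken as 1 group, so it includes the difference under test. The lost call cannot decide whether Gja1 differed. Gja1 kept its call in 8 of the 9 settings tried, the main one included, with log2 ratios between -0.44 and -0.31. All 8 used the exact binomial test with counting error alone, and some left its unadjusted p unchanged. The tally is thus no measure of how firm the call is. Atrial and thymus markers and some cardiomyocyte, red blood cell, adipocyte and macrophage markers moved between the same libraries, as given above. Their part in the Gja1 difference was not tested.

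The other members did not pass this test. Ctnna1 was nearest, with replicate 1 at 0.853 times replicate 2 (0.766 to 0.950) and an adjusted p of 0.088 in the exact binomial test. The ratio of replicate 1 to replicate 2 was 0.888 (0.734 to 1.07) for Pkp2, 0.877 (0.724 to 1.06) for Cdh2, 1.01 (0.755 to 1.34) for Jup and 1.20 (0.845 to 1.72) for Dsp. The low counts of the desmosomal cadherins left wide intervals, 0.825 (0.50 to 1.35) for Dsc2 and 1.09 (0.458 to 2.61) for Dsg2. Ctnna3 had a ratio of 5.03 (1.07 to 47.2) on 12 reads in all, with an adjusted p of 0.27 in the exact test, so it did not pass, and its interval does not show that the libraries were alike. Tjp1, with 8 counts, fell below the minimum summed count of 10 and was not tested. The median log2 ratio of the 9 members tested was -0.17, beside -0.08 over all genes tested.

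**Figure D2:**
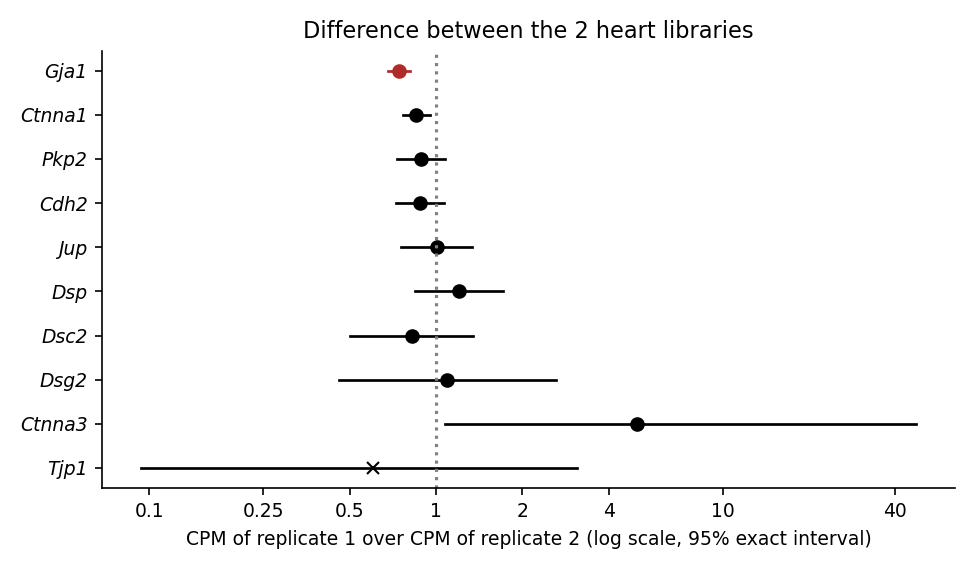
CPM in replicate 1 over CPM in replicate 2 for each gene, on a log axis, with 95% exact intervals. Gja1, in red at 0.742, was called; Tjp1, the cross, was not tested; the Ctnna3 interval runs from 1.07 to 47.2.

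The same test was read for the rest of the junction machinery, 66 listed genes in 5 groups, of which 49 were detected and 40 tested. None was higher in replicate 1, and 1 was higher in replicate 2: Xirp2, an actin-binding protein of the disc, with 17 counts in replicate 1 and 42 in replicate 2 (log2 ratio -1.25, adjusted p = 0.048 in the exact binomial test). That call was lost with edgeR's exact test, which called 0 of the 40, and with TMM scaling, under which Perp was called in its place. Among the listed disc proteins the highest were Actn2 (alpha-actinin 2) at 3549 ± 4.06 CPM, Des (desmin) at 2351 ± 59.1 CPM and Popdc2 at 519 ± 10.7 CPM, and none of these passed the test.

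Long reads also show which transcript each molecule came from. The authors sorted models into those that match an annotated transcript, those whose splice sites are a consecutive part of one (incomplete splice matches), those that join known splice sites in a new way, those with a new splice site, and genomic ones. Annotated transcripts held 82.1% of the counts of the 10 genes in replicate 1 (95% Clopper-Pearson interval 80.4% to 83.7%) and 84.2% in replicate 2 (82.8% to 85.6%), beside 80.7% in replicate 1 and 80.4% in replicate 2 over all reference genes. In all 193 distinct models were counted, 131 in replicate 1 and 130 in replicate 2. The 68 models found in both held 95.4% of the counts in replicate 1 and 95.3% in replicate 2.

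**Figure D3:**
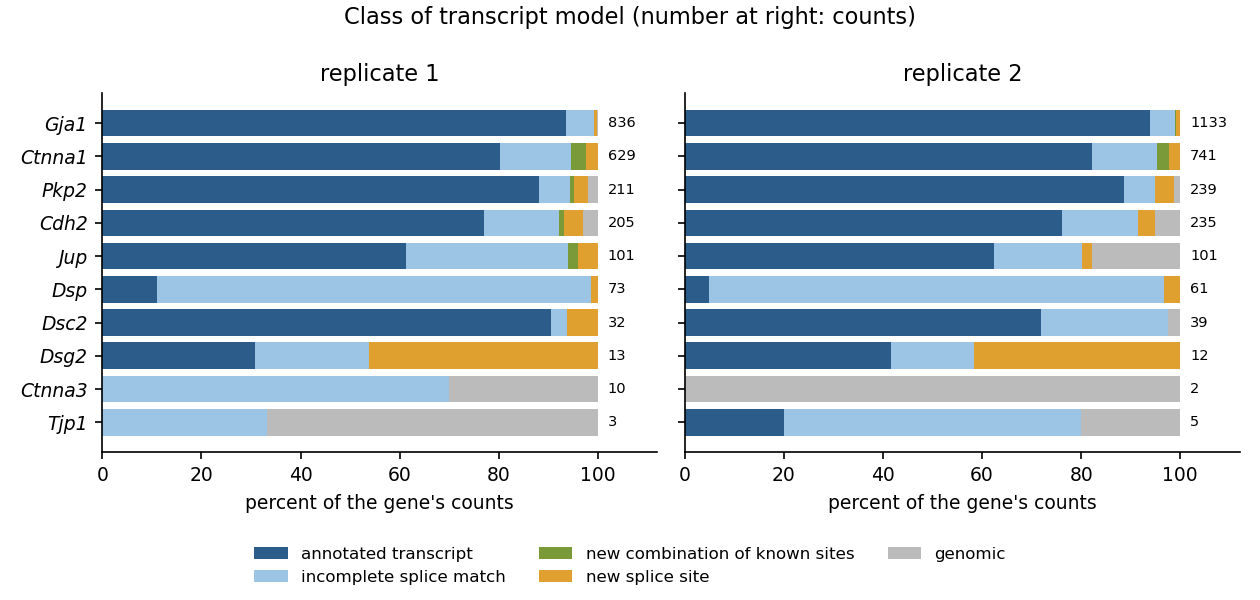
The share of each gene's counts by class of transcript model, replicate 1 at left and replicate 2 at right, with the number of counts beside each bar. Annotated transcripts filled most of the bars of Gja1, Pkp2, Ctnna1 and Cdh2 and a small part of the Dsp bar, 11.0% in replicate 1 and 4.92% in replicate 2.

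For Gja1, the annotated transcript Gja1-201 had 781 counts in replicate 1 and 1062 in replicate 2. It has 2 exons, of 189 and 2882 bases, and the whole coding part of 1146 bases (chr10:56387547-56388692) lies in exon 2. The next model was a single exon equal to exon 2, chr10:56387534-56390415, with 46 counts in replicate 1 and 59 in replicate 2, which is 5.50% of Gja1 in replicate 1 and 5.21% in replicate 2. As the stretch printed above shows, exon 2 starts 13 bases before the start codon, so this model as drawn holds the whole coding part. Its ends are those of the annotated exon, so whether each of its reads held the whole coding part was not seen. Other annotated Gja1 transcripts had 2 counts in replicate 1 and 1 in replicate 2.

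Single transcripts also dominated Pkp2, Cdh2 and Ctnna1. Pkp2-201 held 88.2% of Pkp2 counts in replicate 1 and 88.3% in replicate 2, Cdh2-201 held 77.1% in replicate 1 and 76.2% in replicate 2, and Ctnna1-201 held 80.1% in replicate 1 and 81.8% in replicate 2. The rest of these genes was mostly incomplete matches. The share of the dominant annotated transcript among annotated counts was compared by Fisher's exact test in 2633 genes, of which 1 (0.038%) was called. The 5 members tested, Gja1, Ctnna1, Pkp2, Jup and Dsc2, were not called, each with an adjusted p of 1 in that exact test.

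How far reads reached towards the 5′ end was read from the splice junctions they held. Counts with the first junction were set against counts with the last, each taken on its own. A junction was counted by its downstream splice site, whatever its upstream one. For Pkp2 there were 193 against 205 in replicate 1 and 221 against 234 in replicate 2, or 94.1% and 94.4%. For Ctnna1 the share was 86.9% in replicate 1 and 87.5% in replicate 2, for Cdh2 80.8% in replicate 1 and 81.1% in replicate 2, and for Jup 68.7% in replicate 1 and 63.9% in replicate 2. The last-junction counts of Jup include 9 in replicate 1 and 12 in replicate 2 on Jup-204, an annotated 2-exon transcript without the first junction. The single junction of Jup-204 is the last one of Jup-201, so shortened Jup-201 reads could be among them. Dsp stood lowest of the genes with more than 20 counts on the last junction in each library. It had 8 against 26 counts or 30.8% (14.3% to 51.8%) in replicate 1. In replicate 2 it had 3 against 29 or 10.3% (2.19% to 27.4%). These intervals treat the first count as a part of the last. The ends of annotated models are those of the annotation. The leading incomplete matches of Gja1 and Dsp likewise start and end with the annotated last exon. Read ends inside the first and last exons were thus not seen.

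**Figure D4:**
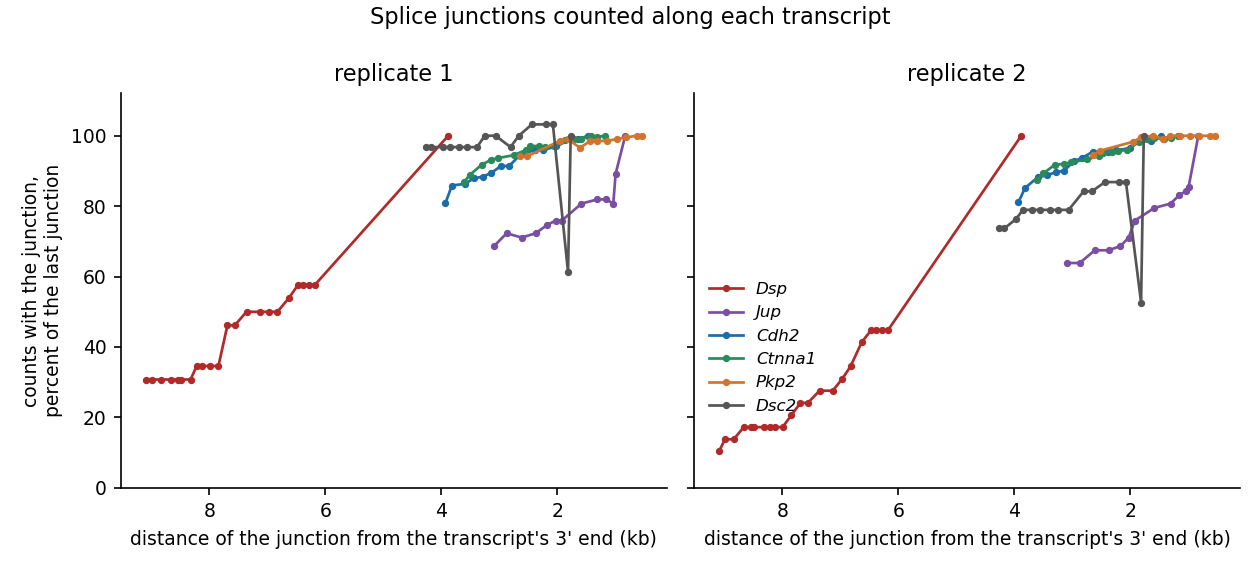
Counts with each splice junction as a percent of those with the last junction, against the distance of the junction from the 3′ end of the transcript in kb, for 6 genes, replicate 1 at left and replicate 2 at right. The Dsp line falls towards the 5′ end, to 30.8% in replicate 1 and 10.3% in replicate 2, while Pkp2, Ctnna1 and Cdh2 stay above 80% in both; the single dip of Dsc2 is its alternative short exon.

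Dsp is the longest of these transcripts, at 9592 bases for Dsp-201. Only 8 of 73 Dsp counts in replicate 1 and 3 of 61 in replicate 2 were on an annotated transcript, and Dsp-201 itself had 5 in replicate 1 and 2 in replicate 2. The leading model was a single exon equal to the last exon, chr13:38194696-38198577, with 47 counts in replicate 1 and 32 in replicate 2. A model of the last 2 exons followed with 9 counts in replicate 1 and 15 in replicate 2. Over both libraries 8.21% of Dsp counts were annotated, beside a median of 46.1% over 467 genes whose dominant transcript exceeds 6 kb. Dsp stood above 12.4% of the genes in that class, and the class medians themselves fell with length, at 90.9% below 2 kb, 80.1% at 2 to 4 kb and 62.9% at 4 to 6 kb. Tjp1, in the same class as Dsp, had 12.5% of its 8 counts on an annotated transcript.

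Desmoplakin I and II differ in exon 23, which codes for part of the central rod. Form I keeps 2295 bases of it and form II 498, so that 1797 bases are present in form I only, the difference between the coding lengths of 8649 bases in Dsp-201 and 6852 in Dsp-202. The form II splice site is the point where lower case turns to capitals in the third stretch above; the bases just past it read as the GT of a donor site. Form II had 7 counts and form I 18 in replicate 1, and form II had 5 counts and form I 23 in replicate 2. Form II was thus 28% of the informative reads in replicate 1 (12.1% to 49.4%) and 17.9% in replicate 2 (6.06% to 36.9%), and both forms were seen in both libraries. The share was also taken among reads that held the junction before exon 23. To hold it, a form I read must span 1797 bases more than a form II read. Where reads stop short of the 5′ end, this second share thus favours form II, while the first asks the same reach of both forms. Among the reads with that junction, form II had 5 counts and form I 9 in replicate 1, and form II 5 and form I 8 in replicate 2. The form II share was then 35.7% in replicate 1 (12.8% to 64.9%) and 38.5% in replicate 2 (13.9% to 68.4%), or 37.0% over both (19.4% to 57.6%).

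Dsc2 also makes a pair of forms, which differ by a short exon near the 3′ end (chr18:20032490-20032535, 46 bases). Reads with the exon make the form with the shorter cytoplasmic tail, known as Dsc2b: the coding part is 2544 bases in Dsc2-201, which has the exon, and 2706 in Dsc2-202, which skips it. The exon was included in 19 counts and skipped in 13 in replicate 1, and included in 20 and skipped in 18 in replicate 2. Inclusion was 59.4% in replicate 1 (40.6% to 76.3%) and 52.6% in replicate 2 (35.8% to 69.0%), or 55.7% over both (43.3% to 67.6%). Neither form prevailed beyond the counting error.

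**Figure D5:**
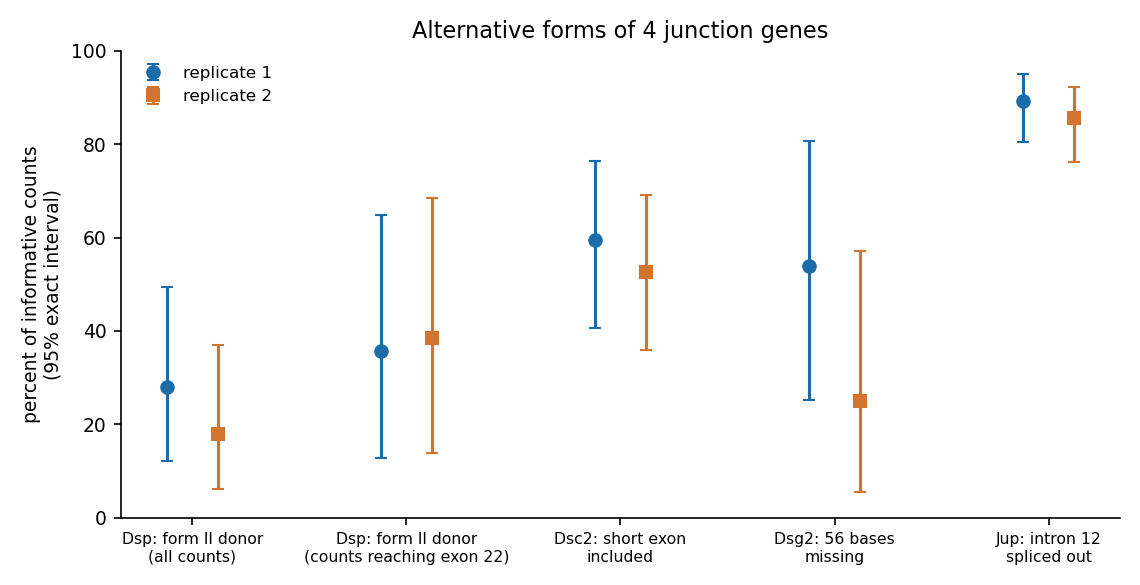
The share of the named form among informative counts, with 95% exact intervals, in replicate 1 (circles) and replicate 2 (squares). From left to right the forms are Dsp form II in all informative reads and in reads that reach exon 22, the Dsc2 short exon included, the 56 bases missing in Dsg2 and the Jup intron 12 spliced out. The Jup share rests on annotated model ends. The intervals of replicate 1 and replicate 2 overlap for every form.

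In Jup, intron 12 of Jup-201 (chr11:100372462-100372655, 194 bases) was spliced out in 74 counts in replicate 1 and 71 in replicate 2. Another 9 counts in replicate 1 and 12 in replicate 2 were on Jup-204, a 2-exon transcript that the annotation gives no coding part. Its annotated first exon covers the intron. By model, the intron was thus removed in 89.2% of all these counts in replicate 1 (80.4% to 94.9%) and in 85.5% in replicate 2 (76.1% to 92.3%). The only junction of Jup-204 is the last one of Jup-201, and model ends are those of the annotation. A Jup-201 read that starts after intron 12 could be counted there, so whether any read kept the intron was not seen. A further 18 counts in replicate 1 and 18 in replicate 2 were on single-exon models within the last exon. These were called incomplete splice matches in replicate 1 (831 bases) and genomic in replicate 2 (441 bases). Incomplete matches made up 32.7% of Jup in replicate 1 and 17.8% in replicate 2, and genomic models 0% in replicate 1 and 17.8% in replicate 2, while reads ending in this exon were equally many.

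In Dsg2, 7 of 13 counts in replicate 1 and 3 of 12 in replicate 2 lacked a stretch of 56 bases (chr18:20603543-20603598) inside the last exon, 1211 bases past the end of the coding part. The annotation has no intron there. The stretch starts with GT and ends with AG, and a run of 21 bases at its edge recurs 55 bases downstream. Whether it is an intron was not tested, and neither was whether the parental strains of the cross differ there. It was missing in 53.8% of reads in replicate 1 (25.1% to 80.8%) and 25% in replicate 2 (5.49% to 57.2%), a difference within the counting error. Of the unannotated junctions in the 10 genes this one had the most counts, 10 over both libraries, and the next, in Pkp2, had 3 in replicate 1 and 3 in replicate 2.

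The remaining members were too low for isoform shares. All Ctnna3 counts were on models that are incomplete or genomic, 7 incomplete and 3 genomic in replicate 1 and 2 genomic in replicate 2, and none reached the first junction. Only 4 reads in replicate 1 and 0 in replicate 2 held its last junction. For Tjp1, 1 read in replicate 2 matched the whole transcript Tjp1-201. It was the single read that crossed the site of the alpha exon (chr7:65314093-65314332, 240 bases), and it skipped that exon.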

How the data were processed

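Long-read RNA-seq models were deposited by the authors as whole-number counts per transcript model and library, without normalization, per the file headers. The models refer to GENCODE M21 on mm10, per the files' notes; for the aligner, the filters and the version of the model caller, the sources used here state nothing. Counts were summed per gene and scaled to the reference-gene total of each library. New genes (2.68% of counts in replicate 1, 2.89% in replicate 2) and spike-ins (1.72% and 1.25%) stayed out of totals and tests.

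Genes with a summed count of at least 10 entered an exact conditional binomial test, two-sided, with Benjamini-Hochberg adjustment over all genes tested. Log2 ratios are replicate 1 over replicate 2 on CPM plus 1. Fisher's exact test compared dominant transcripts where each library had at least 20 annotated counts. New multi-exon models were matched between libraries by all introns. Forms had at least 10 counts each and 5% of the minor form. Tests and tables used Python 3.11.15 and scipy 1.17.1, with edgeR 4.0.16 and DESeq2 1.42.0 size factors as alternatives. The exact binomial and Fisher tests were checked on data simulated with counting error alone. That check cannot show how many false calls a wider spread between libraries would give. No molecular identifiers were counted, so reads may repeat a molecule, and intervals and the 3-count limit cover counting error only.

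All 10 members are named, with the 3 highest genes and any called gene of each other list, except for an item that is not reported here; Gja5, Ctnnb1, Ctnna2, Dsc3 and the genes given as 0 were added after their values were seen. The members and lists were chosen with earlier results of these data known.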

Additional observations from a re-analysis of the deposited data

Results flagged for a closer look

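New models on the strand opposite to the members were outside every comparison above, and they held counts in both libraries. In the Gja1 locus they had 19 counts in replicate 1 and 17 in replicate 2, in the Cdh2 locus 23 in replicate 1 and 22 in replicate 2, and in the Ctnna1 locus 26 in replicate 1 and 18 in replicate 2. In the Ctnna3 locus they had 14 counts in replicate 1 and 20 in replicate 2, beside 10 counts of Ctnna3 itself in replicate 1 and 2 in replicate 2. Of these, 6 counts in replicate 1 and 10 in replicate 2 were on models that share only the last base of the gene and otherwise lie downstream of it. In the Tjp1 locus they had 7 counts in replicate 1 and 7 in replicate 2, beside 3 counts of Tjp1 in replicate 1 and 5 in replicate 2. Each lies above the limit of 3 counts that a count of 0 allows. The Cdh2 counts came mostly from 1 model, chr18:16761497-16764808, a single exon with 21 counts in replicate 1 and 16 in replicate 2. Over all 10 loci the opposite strand had 92 counts in replicate 1 and 93 in replicate 2.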

How the results depend on the processing

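No paired analysis was possible because the series holds 1 group. Of 170 recomputed values over 40 results, 146 kept their direction and side of the threshold, or moved within the spread. For levels and shares, the value of either library alone always lies within the SD of the 2. Those entries with a library left out were thus fixed in advance and show no stability. The log2 ratios of 2 members that were not called changed sign with annotated transcripts alone: Dsc2 to 0.052, beside -0.27, and Jup to -0.020, beside 0.01. The count of genes differing between the libraries was 331; it was 204 with the length trend removed and 22 with edgeR's exact test, where Gja1 lost its call. TMM scaling moved the median log2 ratio of all genes from -0.08 to 0.00 and the split to 243 higher in replicate 1 and 91 higher in replicate 2. The dominant-transcript test called 12 genes when all other models formed the rest, none of them a member. The annotated share of the 10 genes, 83.2% as the mean of the libraries, was 85.7% with models of at least 2 counts. The 4 genes with alternative forms by model became 2 with annotated transcripts alone and 1 to 2 with either library left out. Of the listed junction genes 1 was called, and 0 with edgeR. The levels with annotated transcripts alone were 6.43 CPM for Dsp, 5.26 CPM for Dsg2, 0.584 CPM for Tjp1 and 0 for Ctnna3, and the others moved by less than 1.5 times. For the other values that moved, the cause was not tested. Depth limits Dsg2, Ctnna3 and Tjp1 most, at 25, 12 and 8 counts over both libraries.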
